A study of Mus musculus with 27 samples.

Results

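M2-like bone marrow-derived macrophages lacking the mitochondrial chaperone TRAP1 were compared with WT M2 macrophages after both had been kept in medium conditioned by malignant peripheral nerve sheath tumor cells (MPNST-CM). The comparison holds 6 of the 27 libraries of the series, 3 TRAP1 KO and 3 WT, all of batch 1, and its members are all genes that passed a filter on low counts, which were 13614 of the 50559 genes counted. Both groups came from bone marrow of age-matched female C57BL/6 mice of 3 to 4 months, either WT or TRAP1-deficient. The marrow cells had been grown into macrophages, polarized to M2 for 24 h with interleukin-4 (IL-4) at 10 ng/mL and exposed for 48 h to MPNST-CM, renewed after the first 24 h. The labels do not say whether the 3 libraries of a group came from separate mice, and p-values measure only the spread between these libraries, which may be technical. The genotype difference in MPNST-CM was set against that of M2 macrophages in DMEM, the control medium, and that of Mφ macrophages, which had received no IL-4 (M0 in the labels and plots), in MPNST-CM, with 3 libraries of each genotype in either case.

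TRAP1 is a chaperone of the HSP90 family that resides in mitochondria, where it acts on enzymes of the respiratory chain, succinate dehydrogenase among them. IL-4 signals through STAT6 and turns on a set of macrophage genes that includes the arginase Arg1 and the mannose receptor Mrc1. Macrophages in tumors are known to secrete factors that act on vessels, to take up lipids and iron, and to respond to type I interferon, whose signal ends at genes that carry an interferon-stimulated response element in their promoters.

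Trap1 was counted at 10.4, 10.5 and 10.6 CPM (counts scaled to a common library size by TMM) in the WT libraries and had no count in the KO libraries, so that it was at least 28.2-fold lower. That bound takes a floor of 3 counts per library. Among the 20 genes nearest to Trap1 on chromosome 16, 10 on either side, 4 were higher and none lower, beside 17.2% higher and 16.8% lower over all genes tested, and the median log2 fold change was -0.01. Xist, the noncoding RNA made from the inactive X chromosome of female cells, also separated the groups, at 504, 254 and 287 CPM in WT and 0.265, 0.339 and 1.14 CPM in KO. Y-linked genes had at most 2 counts in any batch 1 library, and Xist had 2079 to 4010 counts in all 12 WT and 0 to 9 counts in all 12 KO libraries of batch 1. Loss of Xist and loss of TRAP1 therefore cannot be told apart by genotype in this comparison or elsewhere in batch 1. The 2 batch 2 libraries labelled TRAP1 KO had Xist at 293 and 422 CPM without scaling, with at most 2 Trap1 counts. Of the other 451 X-linked genes tested, 47 (10.4%) were higher and 68 (15.1%) lower, beside 17.4% and 17% of autosomal genes. The lower ones included Eif2s3x, which fell by 0.73 on the log2 scale. Kdm5c fell by 0.31 and was not called without KO library 2 (-0.23, adjusted p = 0.12). Ddx3x and Kdm6a, also X-linked, did not pass. Ddx3x was at 3613, 2700 and 2693 counts in WT and 2966, 3358 and 3127 counts in KO.

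The 6 libraries held 7709877 to 9089792 counts, and a gene under 3 counts, or 0.339 to 0.397 CPM, was taken as not detectable. WT library 1 stood apart from the other two. Of 8498 genes at 10 CPM or more in a WT library, 223 were at least 2-fold higher in it than in the mean of the others and 4 at least 2-fold lower, and 24 of the 223 differed between genotypes. The nuclear RNA Malat1 was at 10410 CPM in that library against 2344 and 2234 CPM in the other WT libraries and 6326 to 8013 CPM in KO, and the mitochondrial ribosomal RNA mt-Rnr2 at 23810 against 5203 and 5357 CPM in WT and 8997 to 12290 CPM in KO. The part of this in the results was not tested beyond leaving the library out. All 11 macrophage markers were tested, with summed levels of 9150 to 9840 CPM in WT and 10700 to 11500 CPM in KO. They did not move together, since 5 were higher in KO and 2 lower. The lower ones were Adgre1 and Csf1r, which fell by 0.33 and 0.45 on the log2 scale. Summed neutrophil markers were at 7.92 to 11 CPM in WT and 4.5 to 6.21 CPM in KO, dendritic cell markers at 15.3 to 21.9 and 20.8 to 22.9 CPM, and fibroblast or tumor cell markers at 1.95 to 3.02 and 1.59 to 3.28 CPM, and no marker of T, NK or erythroid cells passed the filter. In bulk samples, fewer cells of a type and less RNA per cell cannot be told apart.

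TRAP1 KO M2 macrophages in MPNST-CM differed from WT in 4627 genes (34% of those tested, adjusted p under 0.05), with 2337 (17.2%) higher and 2290 (16.8%) lower. A change of 2-fold or more was fitted for 577 of the higher and 959 of the lower genes. In 6327 genes (46.5%) the 3 KO and 3 WT libraries did not overlap, and 4432 of the called genes were among them. The balance between rises and falls depended on the filter, the scaling and 1 library. The higher genes made up 50.5% of the calls, but 38.5% of 4346 calls with no filter and 40.0% of 4492 calls with a stricter one, and 43% of 4368 calls without WT library 1, with which 3723 calls were shared. It was 44.7% with median-of-ratios scaling, 44.3% with DESeq2 and 42.7% in the 6 libraries alone. One more library labelled TRAP1 KO M2 in MPNST-CM, from batch 2, was not part of the comparison. When all 27 libraries entered the fit the count was 1681, with 619 higher and 1062 lower, and of the 145 genes named in the text 70 were no longer called and 3 changed sign.

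**Figure D1:**
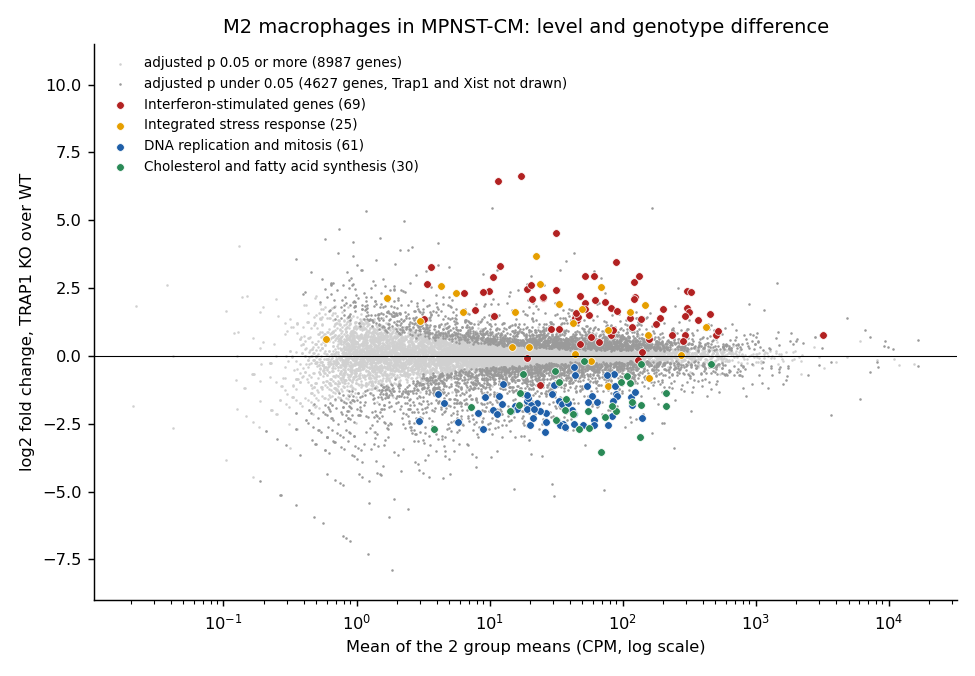
Level and genotype difference of the tested genes. The x axis gives the mean of the 2 group means in CPM on a log scale and the y axis the fitted log2 fold change of TRAP1 KO over WT; each point is a gene, with 4 gene lists in color, and the fitted value of a gene at 0 in a group depends on the prior count. Interferon-stimulated and integrated stress response genes lie mostly above 0, and genes of DNA replication and of cholesterol synthesis below it.

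Some gene lists moved almost as a block and others were split. Over all genes tested 17.2% were higher and 16.8% lower, the shares to set beside the list counts here and below. In 4 lists nearly all called members went one way, namely the interferon-stimulated genes (63 of 69 higher), the integrated stress response (17 of 25 higher), DNA replication and mitosis (60 of 61 lower) and cholesterol and fatty acid synthesis (29 of 30 lower). Endoplasmic reticulum chaperones (15 of 20 lower), angiogenic ligands, receptors and proteases (21 of 31 lower) and IL-4 genes (16 of 26 lower) leaned the same way. Glycolysis, inflammatory, chemokine and lipid handling genes were split between rises and falls, and few subunits of the respiratory chain passed the test. With all 27 libraries fewer members were called in most lists. The endoplasmic reticulum chaperones then had 9 lower and none higher, the chemokines 2 higher and 7 lower, the inflammatory genes 1 higher and 2 lower, and the complement, scavenger and Fc receptors 4 higher and 2 lower.

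**Figure D2:**
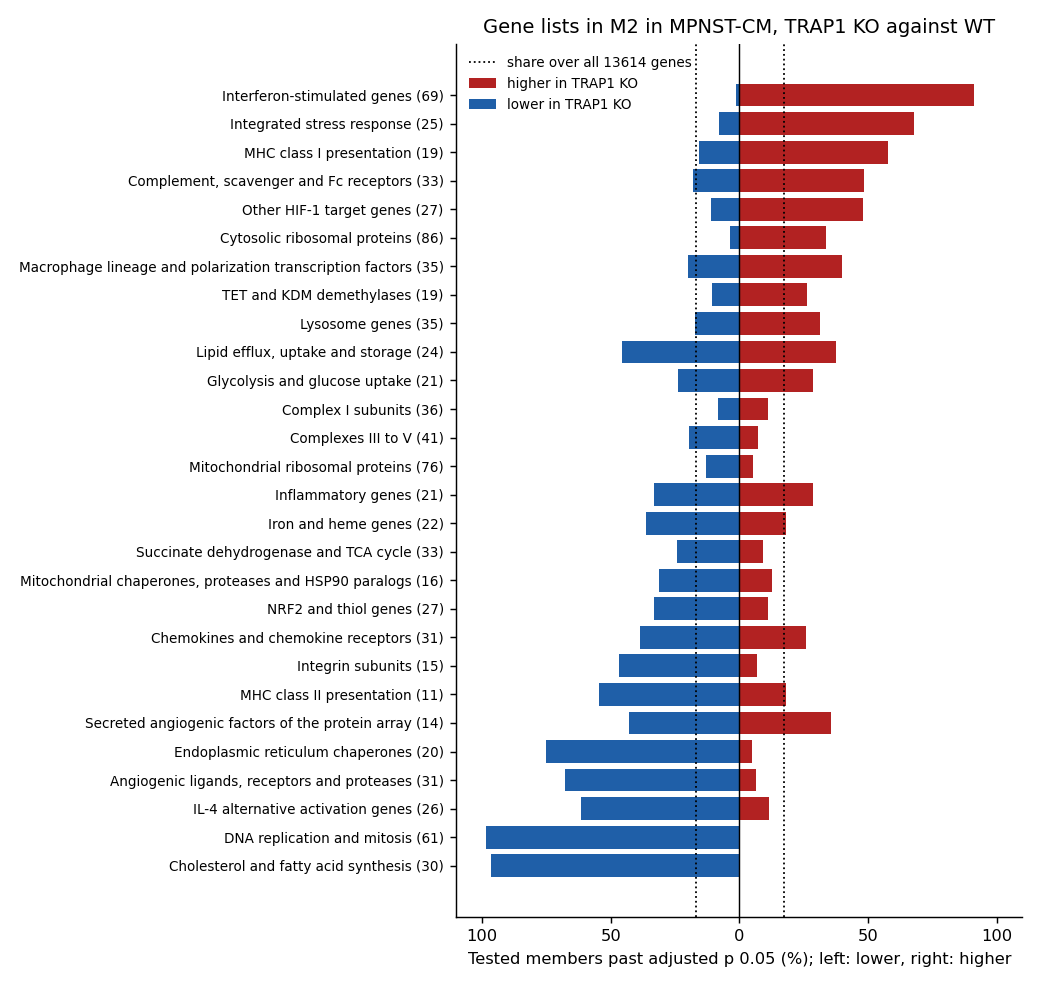
Share of the tested members of each gene list that passed adjusted p 0.05, in percent, with rises in TRAP1 KO to the right and falls to the left; the number of tested members stands in parentheses. Dotted lines mark the shares over all 13614 genes, 17.2% higher and 16.8% lower.

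Interferon-stimulated genes rose in TRAP1 KO M2 macrophages. Of 69 tested members, 63 were higher and 1 lower, with a median log2 fold change of 1.65 against 0.05 over all genes, and 51 rose 2-fold or more. Without WT library 1 the counts were 64 and 1, and with all 27 libraries 28 and 1. Ifi213, a member of the Ifi200 family of DNA sensors and their relatives, Isg15, a ubiquitin-like protein that is attached to other proteins, and Ifit3, which belongs to a family of proteins that bind viral RNA, are shown with their RefSeq promoters, 250 bases before to 50 after the annotated start in GRCm38.p6, because each rose over 6-fold and holds the core of the response element. The core searched was GAAA, any 2 bases, then GAAA, on both strands, and capitals mark the matches, which overlap in Isg15. Ifi213 lies at chr1:173599223-173599522 on the minus strand, Isg15 at chr4:156200769-156201068 on the minus strand and Ifit3 at chr19:34583279-34583578 on the plus strand.
Ifi213: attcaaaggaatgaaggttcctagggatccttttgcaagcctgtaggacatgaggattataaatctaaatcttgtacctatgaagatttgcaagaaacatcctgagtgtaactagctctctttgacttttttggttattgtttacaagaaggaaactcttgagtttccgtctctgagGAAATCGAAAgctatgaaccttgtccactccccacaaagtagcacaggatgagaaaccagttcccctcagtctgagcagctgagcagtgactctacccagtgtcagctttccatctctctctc
Isg15: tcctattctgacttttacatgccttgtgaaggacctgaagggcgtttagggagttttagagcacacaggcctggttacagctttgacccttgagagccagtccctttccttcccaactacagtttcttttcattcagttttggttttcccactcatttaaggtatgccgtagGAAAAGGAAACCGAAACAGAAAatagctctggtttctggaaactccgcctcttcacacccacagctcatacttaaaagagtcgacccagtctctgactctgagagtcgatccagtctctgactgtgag
Ifit3: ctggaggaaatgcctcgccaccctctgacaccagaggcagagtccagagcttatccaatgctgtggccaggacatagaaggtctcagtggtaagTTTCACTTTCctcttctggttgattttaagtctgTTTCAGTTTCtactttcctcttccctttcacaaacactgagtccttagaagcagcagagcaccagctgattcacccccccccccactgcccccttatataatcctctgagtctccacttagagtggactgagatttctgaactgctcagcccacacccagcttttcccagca
Of the 54 members whose promoter was in the RefSeq table, 30 (55.6%) hold the core, beside 3.49% of 27025 promoters and 3.33% of the 9906 promoters of tested genes. A match is a description of the letters, not a site.

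Ifi213 was at 2.14, 3.66 and 2.14 CPM in WT and 63, 62.7 and 57.2 CPM in KO, a log2 fold change of 4.51 ± 0.15 (SE, adjusted p = 5.0e-18). Isg15 was at 3.02, 2.07 and 2.26 CPM in WT and 20.1, 20.6 and 15.6 CPM in KO (2.93 ± 0.24, adjusted p = 2.0e-10). Ifit3 was at 27.9, 31.7 and 35.7 CPM in WT and 213, 216 and 207 CPM in KO (2.73 ± 0.11, adjusted p = 1.2e-16). In all 3 genes every KO library lay well above every WT library. The Schlafen genes Slfn1 and Slfn4 were near the floor in WT, at 3, 3 and 2 counts and at 1, 1 and 4 counts. They reached 239, 301 and 295 counts and 168, 196 and 191 counts in KO. The ratios of summed counts were 104 for Slfn1 (95% exact counting interval 52.3 to 240.4) and 91.7 for Slfn4 (41.9 to 251). Schlafen and Ifi200 genes have close paralogs, so reads may be shared among them, and their single values are uncertain.

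The factors that carry the interferon signal rose as well. Irf7, the factor that amplifies the type I response, was at 32.3, 27.1 and 31.5 CPM in WT and 235, 238 and 237 CPM in KO (2.96 ± 0.11, adjusted p = 3.5e-17). Stat2 and Irf9 rose by 1.39 and 0.77 on the log2 scale. Among effectors, the antiviral enzyme Rsad2 went from 112, 107 and 103 CPM to 542, 562 and 532 CPM (2.35 ± 0.09, adjusted p = 3.5e-17). Of the other genes with the largest rises, Ifi206, Ifi44, Iigp1 and Gbp8, a GTPase of the guanylate-binding family, rose by 3.78, 3.47, 3.33 and 3.18 on the log2 scale. The lone member called lower, Slfn9, was at 54.1, 20.4 and 23.5 CPM in WT and 15.9, 13.4 and 17.5 CPM in KO (-1.07 ± 0.38, adjusted p = 0.036), and it was called neither without WT library 1 (-0.57, adjusted p = 0.22) nor without any one of the KO libraries (-1.16 to -0.97, adjusted p = 0.062 to 0.12). Slfn2, at 243, 141 and 143 CPM in WT and 292, 255 and 342 CPM in KO, did not pass (adjusted p = 0.081) unless that library was left out (adjusted p = 0.039).

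The genes for the proteins that load peptides on MHC class I are known to respond to interferon in many cells. Whether interferon signaling raised them here was not tested. Of 19 tested genes of class I presentation, 11 were higher and 3 lower (median 0.71). The peptide transporter Tap1 was at 58.1, 55.5 and 52.3 CPM in WT and 138, 133 and 135 CPM in KO (1.29 ± 0.09, adjusted p = 3.5e-12), and the light chain B2m rose from 4969, 5696 and 5827 CPM to 8925, 8516 and 9509 CPM (0.71 on the log2 scale). The lower members included Calr, which also belongs to the endoplasmic reticulum list. Of the class II presentation genes 6 of 11 tested were lower and 2 higher (median -0.34), but none was called in either direction with all 27 libraries. Ciita, the master regulator of class II transcription, was at 10.9, 7.44 and 8.81 CPM in WT and 4.63, 3.50 and 4.81 CPM in KO (-1.07 ± 0.21, adjusted p = 0.00023), but with all 27 libraries its fitted change was 0.51 (adjusted p = 0.76). The invariant chain Cd74 was at 1166, 1343 and 1433 CPM in WT and 779, 730 and 907 CPM in KO (-0.71 on the log2 scale). Without WT library 1, 8 class II genes were lower and 1 higher.

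Genes of the integrated stress response, in which ATF4 turns on amino acid synthesis and transport, rose. Of 25 tested members 17 were higher and 2 lower, and the median log2 fold change was 1.28. With all 27 libraries, 4 were higher and 1 lower. Nupr1, a small stress-induced nuclear protein, and Chac1, which breaks down glutathione, are shown because both rose and their promoters hold TGATGCAA, the composite element to which ATF4 and C/EBP factors bind. This motif was searched after the values had been seen, on both strands, and capitals mark the match. Nupr1 lies at chr7:126625421-126625720 on the minus strand and Chac1 at chr2:119350992-119351291 on the plus strand.
Nupr1: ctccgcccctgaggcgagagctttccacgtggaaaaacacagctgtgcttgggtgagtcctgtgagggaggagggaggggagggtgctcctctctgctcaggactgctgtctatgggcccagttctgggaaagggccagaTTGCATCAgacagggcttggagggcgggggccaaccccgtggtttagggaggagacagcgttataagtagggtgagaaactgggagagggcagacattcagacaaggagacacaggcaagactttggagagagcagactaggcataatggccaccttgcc
Chac1: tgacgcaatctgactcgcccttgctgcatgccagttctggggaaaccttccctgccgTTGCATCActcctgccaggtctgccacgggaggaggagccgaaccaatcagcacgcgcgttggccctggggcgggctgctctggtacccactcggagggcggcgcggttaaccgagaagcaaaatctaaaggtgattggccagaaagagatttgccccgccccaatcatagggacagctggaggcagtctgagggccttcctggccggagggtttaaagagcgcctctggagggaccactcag
The element was in 4 of 22 matched members (18.2%), beside 0.929% of all promoters and 0.616% of those of tested genes.

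Nupr1 was at 4.4, 8.29 and 6.79 CPM in WT and 40.9, 42.9 and 39.7 CPM in KO (2.66 ± 0.17, adjusted p = 2.7e-12), and Chac1 at 0.880, 1.46 and 1.38 CPM in WT and 6.75, 7.68 and 7.97 CPM in KO (2.57 ± 0.38, adjusted p = 4.8e-06). The pseudokinase Trib3 was at 2.77, 2.32 and 4.53 CPM in WT and 40.7, 46.1 and 38 CPM in KO (3.70 ± 0.26, adjusted p = 2.5e-11). Asparagine synthetase, Asns, rose from 18.5, 16.6 and 25.8 CPM to 122, 122 and 113 CPM (2.55 ± 0.20, adjusted p = 5.1e-10). The groups did not overlap for any of these genes. Atf4 itself was at 270, 275 and 282 CPM in WT and 587, 522 and 609 CPM in KO (1.05 ± 0.08, adjusted p = 8.1e-11), and Ddit3 and Atf5, factors downstream of it, rose by 1.90 and 1.89 on the log2 scale. The secreted factor Gdf15 went against the list, at 101, 103 and 113 CPM in WT and 50.1, 41.7 and 56.8 CPM in KO (-1.09 ± 0.14, adjusted p = 3.8e-07), and so did Atf3, which fell by 0.81 on the log2 scale. The cystine transporter subunits Slc7a11 (-0.18, adjusted p = 0.22) and Slc3a2 (0.05, adjusted p = 0.72) did not pass, but Slc7a11 did without WT library 1 (-0.34, adjusted p = 0.026).

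Genes of DNA replication and mitosis fell almost without exception. Of 61 tested members 60 were lower and none higher, the median log2 fold change was -1.80, and 57 fell 2-fold or more. The count was 60 without WT library 1 and 52 with all 27 libraries. Ccnb1, the cyclin that drives entry into mitosis, was at 42.1, 46.4 and 47.8 CPM in WT and 6.22, 7.23 and 5.82 CPM in KO (-2.81 ± 0.15, adjusted p = 4.0e-14). Mcm5, a subunit of the replicative helicase, was at 68.3, 68.5 and 62.8 CPM in WT and 14, 22.3 and 13.8 CPM in KO (-1.99 ± 0.13, adjusted p = 1.8e-12). Pcna, the sliding clamp of the polymerases, was at 150, 186 and 193 CPM in WT and 70.5, 74.6 and 65.7 CPM in KO (-1.33 ± 0.14, adjusted p = 5.1e-08). The proliferation marker Mki67 was at 145 CPM in WT library 1 and 54.9 and 59.0 CPM in the others, all above the 13.6, 16.2 and 14.7 CPM of KO (-2.54 ± 0.42, adjusted p = 0.00014). The transcription factors of the list fell by 2.68 (E2f7) and 0.42 (E2f1) on the log2 scale, and Nusap1, a spindle protein, by 2.62. E2f1 was not called without WT library 2 (-0.34, adjusted p = 0.056). The member that did not pass was Ccnd1, the cyclin of the first growth phase, at 191, 61.0 and 62.7 CPM in WT and 71.0, 58.8 and 70.4 CPM in KO (-0.65 ± 0.44, adjusted p = 0.29). The E2F core TTTCCCGC, searched after the values had been seen, was in 6 of 48 matched promoters of the list (12.5%) and in 2.15% of those of tested genes.

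Sterol and fatty acid synthesis, whose genes answer to the SREBP factors when cells lack sterol, was lower in KO at nearly every step. Of 30 tested members 29 were lower and none higher (median -1.83), and 27 were lower with all 27 libraries. Fads2, the desaturase that starts the synthesis of long polyunsaturated fatty acids, was at 127, 128 and 127 CPM in WT and 11.4, 11.8 and 9.87 CPM in KO (-3.53 ± 0.12, adjusted p = 1.2e-17). Cyp51, which demethylates lanosterol, was at 231, 251 and 233 CPM in WT and 29.1, 29.4 and 32.1 CPM in KO (-2.98 ± 0.10, adjusted p = 8.5e-18). The falls of these enzymes were many times the spread among libraries. Srebf2, which encodes the factor over the sterol genes, fell by 0.98 on the log2 scale. Srebf1, over the fatty acid genes, was at 48.6, 55.9 and 58.4 CPM in WT and 47.7, 49.5 and 47.2 CPM in KO and did not pass (-0.17 ± 0.28, adjusted p = 0.68). The sterol regulatory element, searched after the values had been seen as TCAC, any base, then CCAC on both strands, was in 1 of 20 matched promoters of the list (5.0%) and in 1.02% of those of tested genes.

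Genes that move lipid out of and into the cell split, with 9 of 24 higher and 11 lower, or 5 and 0 with all 27 libraries. Abca1, the pump that passes cholesterol to lipoproteins, was at 108, 97.8 and 88.2 CPM in WT and 520, 549 and 462 CPM in KO (2.38 ± 0.13, adjusted p = 1.6e-13), and Apoe rose by 1.00 on the log2 scale. Lpl, the lipase that frees fatty acids from lipoproteins, was at 8625, 9481 and 9160 CPM in WT and 2969, 3169 and 2911 CPM in KO (-1.59 ± 0.08, adjusted p = 1.2e-14). The lysosomal lipase Lipa fell by 1.05. Iron genes split too, with 4 of 22 higher and 8 lower, or 2 and 0 with all 27 libraries. The transferrin receptor Tfrc, which takes in iron, was at 401, 462 and 477 CPM in WT and 40.5, 42 and 44 CPM in KO (-3.40 ± 0.09, adjusted p = 1.4e-19). The iron exporter Slc40a1 rose from 31.2, 39 and 31.3 CPM to 71.0, 74.0 and 71.8 CPM (1.09 on the log2 scale), and the storage subunit Fth1 from 12586, 13586 and 13697 CPM to 20384, 20577 and 19423 CPM (0.60). The called iron genes named here, picked for their large changes, each separated all 6 libraries by genotype, as did 46.5% of all genes tested. Ftl1, also a storage subunit, overlapped between the groups and did not pass. It was at 12475, 13578 and 12676 counts in WT and 10208, 14294 and 7933 counts in KO.

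**Figure D3:**
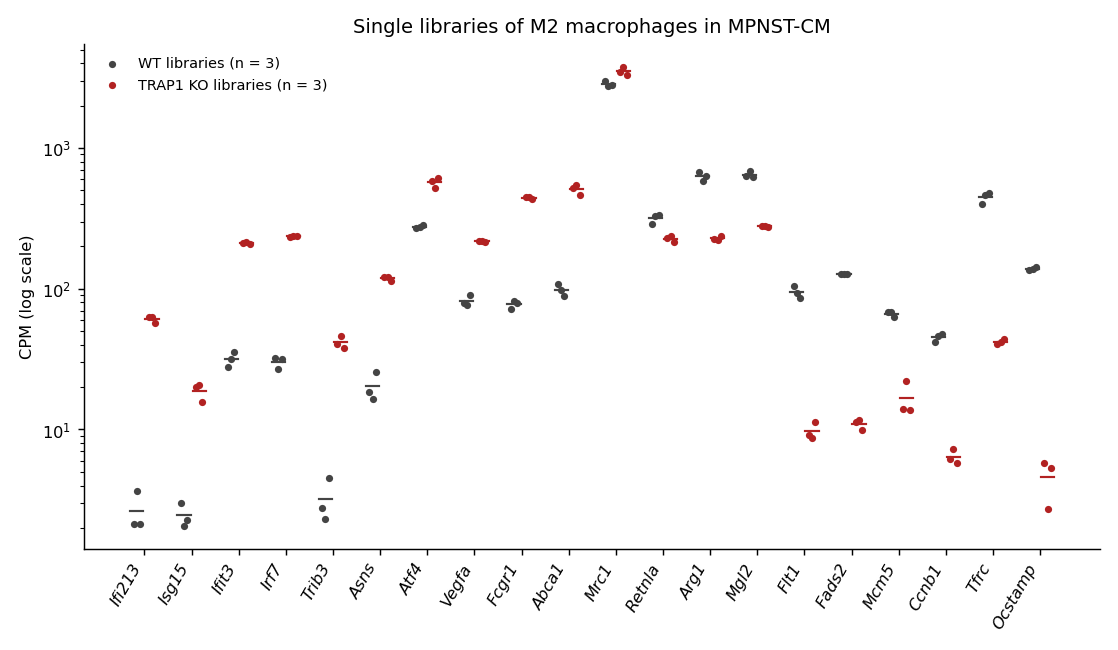
Level of 20 genes in the 3 WT and 3 TRAP1 KO libraries of M2 macrophages in MPNST-CM, in CPM on a log scale; points are libraries and bars are group means. The libraries of the 2 genotypes do not overlap for any of these genes, and the smallest difference drawn is that of Mrc1 (0.31 on the log2 scale).

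IL-4 genes were lower in KO for the larger part, while the mannose receptor and the IL-4 receptor were higher. Of 26 tested members 16 were lower and 3 higher, with a median log2 fold change of -1.14, which is the same with Ccl17 at its bound. With all 27 libraries, 5 were lower and 1 higher. Arg1, which turns arginine into ornithine, was at 674, 586 and 636 CPM in WT and 227, 222 and 236 CPM in KO (-1.47 ± 0.19, adjusted p = 2.6e-06). The lectin Mgl2 was at 631, 683 and 627 CPM in WT and 280, 278 and 276 CPM in KO (-1.22 ± 0.13, adjusted p = 2.3e-08). Its paralog Clec10a, at 217, 265 and 253 CPM in WT and 201, 235 and 215 CPM in KO, did not pass (-0.18 ± 0.12, adjusted p = 0.27). Retnla was at 291, 330 and 332 CPM in WT and 231, 236 and 214 CPM in KO (-0.49 ± 0.14, adjusted p = 0.010), and with all 27 libraries its fitted change was 1.97 (adjusted p = 0.22). The transcription factors Irf4 and Egr2 fell by 2.53 and 2.23 and the cytokine signaling inhibitor Socs1 by 2.99 on the log2 scale. Among secreted products, the eosinophil chemokine Ccl24 went from 11.4, 12.4 and 13 CPM to 1.06, 1.81 and 0.886 CPM (-3.26 ± 0.28, adjusted p = 4.0e-10), and Ccl17, at 1.51, 1.59 and 1.64 CPM in WT, had no count in KO and was at least 4.24-fold lower.

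Mrc1 was at 2970, 2759 and 2801 CPM in WT and 3485, 3769 and 3289 CPM in KO (0.31 ± 0.07, adjusted p = 0.0016), but with all 27 libraries its fitted change was -0.07 (adjusted p = 0.92). Il4ra, the receptor chain for IL-4, was at 88.0, 115 and 110 CPM in WT and 163, 176 and 150 CPM in KO, a rise of 0.65 on the log2 scale. The third member called higher was the transcription factor Klf4 (0.49). The hemoglobin scavenger receptor Cd163, at 4.27 to 6.42 CPM in WT and 5.31 to 8.10 CPM in KO, overlapped between the groups and did not pass (0.43 ± 0.22, adjusted p = 0.14). Of the markers that the study had measured by RT-qPCR, Arg2 did not pass the filter on low counts.

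Genes of inflammatory activation were divided, with 6 of 21 higher (28.6%) and 7 lower (33.3%), beside 17.2% and 16.8% of all genes tested. Fcgr1, the high-affinity IgG receptor CD64, rose most, from 72.2, 81.7 and 79.1 CPM to 450, 446 and 437 CPM (2.52 ± 0.09, adjusted p = 8.5e-18). The costimulatory molecule Cd86 was at 24.1, 27.4 and 30.1 CPM in WT and 105, 107 and 103 CPM in KO (1.95 ± 0.15, adjusted p = 4.2e-11), and the cytokine Il18 rose by 2.05 on the log2 scale. Il1b was at 25.4, 23.3 and 30.8 CPM in WT and 32.7, 34.1 and 40.2 CPM in KO (0.43 ± 0.15, adjusted p = 0.025), a difference that was not called without WT library 1, WT library 2 or KO library 3 (0.33 to 0.34, adjusted p = 0.12 to 0.14). Tnf fell, from 23.5, 24.6 and 19.4 CPM to 11.8, 13.4 and 16.1 CPM (-0.71 ± 0.14, adjusted p = 0.00032), as did the prostaglandin synthase Ptgs2, by 1.16 on the log2 scale. Nos2, the inducible nitric oxide synthase, had no count in the WT libraries and 0.529, 0 and 0.253 CPM in KO, at or near the floor, so no fold is given.

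Genes known to respond to the hypoxia-inducible factor HIF-1 rose in part. Of 27 tested targets outside glycolysis 13 were higher and 3 lower (median 0.30), and with all 27 libraries 3 were higher and 1 lower. Hif1a was at 60.6, 66.4 and 69.4 CPM in WT and 110, 110 and 108 CPM in KO (0.74 ± 0.08, adjusted p = 9.4e-08), and its partner Arnt rose by 0.52 on the log2 scale. Egln3, a prolyl hydroxylase that marks HIF for decay, Hilpda, a protein of lipid droplets, and Bnip3, a receptor for the removal of mitochondria, are shown as the members with the largest rises whose promoters hold ACGTG or GCGTG, the core of the hypoxia response element, searched on both strands. Capitals mark the matches, which partly overlap in Bnip3. Egln3 lies at chr12:54203825-54204124 on the minus strand, Hilpda at chr6:29272238-29272537 on the plus strand and Bnip3 at chr7:138909457-138909756 on the minus strand.
Egln3: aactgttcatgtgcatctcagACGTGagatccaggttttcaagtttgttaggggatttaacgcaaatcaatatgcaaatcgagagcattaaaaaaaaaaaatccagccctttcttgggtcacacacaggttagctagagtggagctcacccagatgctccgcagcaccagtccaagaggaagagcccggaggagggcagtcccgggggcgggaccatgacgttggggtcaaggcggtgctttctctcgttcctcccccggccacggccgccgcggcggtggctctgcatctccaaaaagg
Hilpda: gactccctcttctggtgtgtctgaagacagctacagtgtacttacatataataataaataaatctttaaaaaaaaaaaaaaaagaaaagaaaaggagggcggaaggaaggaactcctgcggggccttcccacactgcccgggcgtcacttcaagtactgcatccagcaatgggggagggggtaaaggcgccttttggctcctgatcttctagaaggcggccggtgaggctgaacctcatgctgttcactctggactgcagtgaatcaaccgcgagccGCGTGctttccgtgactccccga
Bnip3: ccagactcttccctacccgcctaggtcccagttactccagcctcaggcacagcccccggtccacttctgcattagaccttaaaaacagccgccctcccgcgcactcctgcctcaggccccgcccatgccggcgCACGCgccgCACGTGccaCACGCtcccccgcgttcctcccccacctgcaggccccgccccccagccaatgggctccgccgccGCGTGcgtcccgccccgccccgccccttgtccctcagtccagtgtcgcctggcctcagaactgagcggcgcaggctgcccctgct
This short core is common. It was in 33 of 41 matched members of the glycolysis and HIF lists (80.5%), and also in 62.0% of the promoters of tested genes and 43.8% of all promoters.

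Egln3 was at 0.251, 0.854 and 0.377 CPM in WT and 2.38, 3.16 and 2.15 CPM in KO (2.34 ± 0.43, adjusted p = 0.00011). It was near the floor in WT, at 2, 7 and 3 counts, so the size of its rise is uncertain (1.96 to 2.97 with single libraries left out). Hilpda was at 88.4, 117 and 122 CPM in WT and 383, 392 and 386 CPM in KO (1.83 ± 0.12, adjusted p = 1.8e-12). Bnip3 rose by 1.37 on the log2 scale. Vegfa, the growth factor of vessels, was at 78.9, 77.0 and 89.7 CPM in WT and 217, 219 and 216 CPM in KO (1.41 ± 0.11, adjusted p = 5.0e-11). Bhlhe40, a repressor, fell from 110, 116 and 119 CPM to 25.0, 27 and 25.6 CPM (-2.15 on the log2 scale), and Hmox1, which degrades heme, did not pass (-0.02). Within glycolysis 6 of 21 genes were higher (28.6%) and 5 lower (23.8%), beside 17.2% and 16.8% of all genes tested. The lactate exporter Slc16a3 and the regulator Pfkfb3 rose by 1.13 and 1.12, while the glucose transporters Slc2a1 and Slc2a3 and the aldolase Aldoc fell by 0.52, 0.87 and 1.30 on the log2 scale. Counts of glycolytic enzymes with many near-identical copies in the genome, such as Gapdh, are uncertain, because reads that map to several places were removed.

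Most tested genes for ligands, receptors and proteases that act on vessels and matrix fell. Of 31 tested angiogenic ligands, receptors and proteases 21 were lower and 2 higher (median -0.81, the same with Vegfc at its bound), and 10 were lower and none higher with all 27 libraries. The elastase Mmp12 was at 5521, 6248 and 6257 CPM in WT and 1280, 1380 and 1296 CPM in KO (-2.19 ± 0.11, adjusted p = 1.9e-14). The growth factor Pdgfa was at 394, 309 and 309 CPM in WT and 66.5, 56.0 and 60.5 CPM in KO (-2.47 ± 0.09, adjusted p = 5.3e-17). Flt1, a receptor for VEGF that is also on the IL-4 list, went from 105, 92.7 and 86.6 CPM to 9.13, 8.70 and 11.4 CPM (-3.28 ± 0.13, adjusted p = 2.0e-16). Vegfc, the ligand that drives lymphatic vessels, was at 1.63, 1.59 and 2.14 CPM in WT and had no count in KO, at least 4.8-fold lower. Thbs1, which inhibits vessel growth, went the other way, at 406, 370 and 381 CPM in WT and 2639, 2505 and 2415 CPM in KO (2.71 ± 0.13, adjusted p = 5.1e-14). The other rise was that of the VEGF receptor Kdr (0.85).

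Of the 14 tested secreted factors of the protein array of the study, a list picked by the study in connection with these cells and so no independent evidence of direction, 5 were higher and 6 lower. Mmp9, a gelatinase, rose from 64.7, 82.0 and 85.9 CPM to 204, 216 and 208 CPM (1.43 ± 0.11, adjusted p = 5.3e-11), while the pentraxin Ptx3 and the ligand Angpt1 fell by 3.67 and 3.43 on the log2 scale. Chemokines and their receptors were also split, with 8 of 31 higher and 12 lower. The neutrophil attractants Cxcl3 and Cxcl2 rose by 1.92 and 1.45 and Ccl6 by 1.41 on the log2 scale. Of the chemokines for monocytes and other leukocytes, Ccl2 and Ccl3 fell, with Ccl2 at 1551, 1760 and 1852 CPM in WT and 771, 759 and 756 CPM in KO (-1.18) and Ccl3 at 206, 242 and 250 CPM in WT and 50.3, 53.1 and 54.0 CPM in KO (-2.15). The fractalkine receptor Cx3cr1 fell from 6.16, 6.22 and 4.65 CPM to 0.265, 0.565 and 1.14 CPM (-3.08 ± 0.26).

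Chaperones of the endoplasmic reticulum fell together, with 15 of 20 lower and 1 higher and a median log2 fold change of -0.45. Calr, a calcium-binding chaperone, was at 1514, 1097 and 1112 CPM in WT and 435, 428 and 489 CPM in KO (-1.46 ± 0.13, adjusted p = 3.4e-09), and Sdf2l1 at 136, 138 and 131 CPM in WT and 46.4, 40.0 and 45.7 CPM in KO (-1.61 ± 0.15, adjusted p = 1.1e-08). Hspa5, the BiP chaperone that senses unfolded proteins, was at 1726, 1857 and 1792 CPM in WT and 1213, 1230 and 1165 CPM in KO (-0.58). Herpud1 was the member called higher (0.36), and it was not called without WT library 1 (0.27, adjusted p = 0.069). Of the NRF2 and thiol genes, many of them targets of NRF2, a transcription factor of the oxidant response, 9 of 27 were lower and 3 higher, led by the quinone reductase Nqo1, at 18.9, 24.0 and 24.8 CPM in WT and 5.16, 5.65 and 3.67 CPM in KO (-2.22 ± 0.26, adjusted p = 1.2e-07).

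Receptors for microbes and complement were more often higher than lower, with 16 of 33 higher and 6 lower, or 12 and 8 without WT library 1. Cd14, the receptor that presents lipopolysaccharide, was at 508, 539 and 576 CPM in WT and 1741, 1767 and 1775 CPM in KO (1.70 ± 0.16), and the lectins Clec4e and Clec7a went in opposite directions. Clec4e, which detects cell damage and mycobacteria, rose by 1.59, and Clec7a, the receptor for fungal glucans, fell from 594, 484 and 490 CPM to 126, 129 and 129 CPM (-2.03 ± 0.08, adjusted p = 2.6e-16). Axl, a receptor for apoptotic cells, fell by 1.92 on the log2 scale. Of 15 integrin subunits 7 were lower and 1 higher. Itgax, the CD11c chain, was at 353, 386 and 374 CPM in WT and 123, 120 and 121 CPM in KO (-1.61), Itgb3 fell by 2.54 and Itgb7 rose by 1.08 on the log2 scale. Of 35 lineage and polarization transcription factors 14 were higher and 7 lower. Maf rose by 0.80 and Pparg fell by 1.38 on the log2 scale, and Spi1, the master factor of the lineage, did not pass (0.10). The call of Pparg was lost without WT library 3 or KO library 1 or 3 (-1.36 to -1.22, adjusted p = 0.062 to 0.082). Lysosome genes counted 11 of 35 higher (31.4%) and 6 lower (17.1%), beside 17.2% and 16.8% of all genes tested. Without WT library 1 they counted 4 higher and 8 lower.

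Most genes of the mitochondrion, where TRAP1 resides, did not pass the test, and neither did most genes of any kind. Over all genes tested 17.2% were higher and 16.8% lower, the shares to set beside the counts that follow. Of 36 complex I subunits 4 were higher and 3 lower (1 and 8 without WT library 1), of 41 tested subunits of complexes III to V 3 were higher and 8 lower (3 and 13), and of 33 genes of succinate dehydrogenase and the TCA cycle 3 were higher and 8 lower (1 and 13). Sdha, the catalytic subunit of succinate dehydrogenase, fell by 0.27 on the log2 scale, and Sdhb did not pass (-0.11) unless WT library 1 was left out (-0.28, adjusted p = 0.018). Cox6a2, the heart and muscle isoform of a cytochrome oxidase subunit, stood far from the rest, at 5, 5 and 1 counts in WT and 155, 204 and 140 counts in KO, a ratio of 45 (95% exact counting interval 24.9 to 90.7). Among mitochondrial chaperones and proteases and the paralogs of TRAP1, 5 of 16 were lower and 2 higher. The chaperonin Hspd1 was at 76.2, 73.3 and 73.1 CPM in WT and 40.1, 40.2 and 37.2 CPM in KO (-0.92 ± 0.12, adjusted p = 4.2e-07), the cytosolic paralog Hsp90aa1 fell by 0.63, and the import motor Hspa9 rose from 179, 189 and 193 CPM to 272, 263 and 262 CPM (0.51 ± 0.08). Of 19 tested TET and KDM demethylases, most of which use oxoglutarate, 5 were higher and 2 lower, led by Kdm5b (0.98), Kdm6b (0.92) and Kdm7a (0.91). The call of Kdm5b was lost without WT library 2 or 3 or KO library 1 or 3 (0.76 to 1.02, adjusted p = 0.051 to 0.13). Cytosolic ribosomal proteins were higher in 29 of 86 and lower in 3, with 15 and 7 without WT library 1, and mitochondrial ones higher in 4 and lower in 10 of 76.

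Several of the largest changes lay outside these lists. F5, coagulation factor V, was at 8.93, 7.68 and 5.66 CPM in WT and 329, 321 and 327 CPM in KO (5.45 ± 0.17, adjusted p = 3.6e-18), and the glycerol channel Aqp9 rose from 5.28, 6.95 and 6.04 CPM to 69.3, 66.4 and 71.6 CPM (3.50 ± 0.19, adjusted p = 7.2e-14). Ocstamp, a membrane protein needed for the fusion of osteoclasts and macrophages, was at 136, 139 and 143 CPM in WT and 5.82, 2.71 and 5.32 CPM in KO (-4.93 ± 0.21, adjusted p = 1.3e-14). The summed osteoclast markers, of which Ocstamp is one, were at 1010 to 1080 CPM in WT and 413 to 439 CPM in KO, with 3 of 6 tested lower and none higher, and the part of this in other results was not tested. The claudin Cldn11, the microtubule protein Map2 and the sodium channel Scn3a fell, with log2 fold changes of -5.15, -4.89 and -4.73. Il1rl1, the receptor for interleukin-33, was at 40.9, 36.8 and 36.1 CPM in WT and 3.04, 2.37 and 3.80 CPM in KO (-3.63 ± 0.21, adjusted p = 2.5e-13). The other largest falls were those of Nptx1 (-3.71), Pald1 (-3.71), Plxdc2 (-3.69), Ablim1 (-3.62) and Tuba8 (-3.49).

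The genotype difference in MPNST-CM was next tested against that in control medium, to see which changes depended on the tumor medium. It differed in 2751 genes, with 1274 (9.36%) more positive and 1477 (10.8%) more negative in MPNST-CM. The more positive genes made up 46.3% of these calls, 36.2% of 2643 calls with no filter and 35.6% of 2756 with a stricter one. In control medium itself 1166 genes (8.56%) were higher and 1072 (7.87%) lower in KO, and 971 of the 4627 genes called in MPNST-CM (21%) were called there in the same direction and 302 in the other. Of the 69 interferon-stimulated genes, 59 had a more positive difference in MPNST-CM. In control medium 29 of the 69 were already higher in KO and 5 lower, beside 8.56% and 7.87% of all genes. For Ifit3 the group means were 13.9 and 26.1 CPM in control medium, WT and KO, and the difference between both genotype effects was 1.83 ± 0.16 on the log2 scale (adjusted p = 2.2e-09). Replication genes were more negative in 58 of 61. Ccnb1 was not called in control medium (0.35), and its difference of differences was -3.16 ± 0.20 (adjusted p = 5.2e-12). Cholesterol genes were more negative in 27 of 30, and 6 of them were higher in KO in control medium. Fads2 was at 47.4 and 80.6 CPM there, with a difference of -4.30 ± 0.16 (adjusted p = 8.6e-16), and the desaturase Scd1 at 8.28 and 64.2 CPM, against 36.3 to 38.5 CPM in WT and 22.8 to 28.2 CPM in KO in MPNST-CM (-3.53 ± 0.20, adjusted p = 1.5e-12). Slco4a1, an organic anion transporter, followed the same pattern (-4.17 ± 0.17, adjusted p = 1.3e-15). Stress response genes were more positive in 19 of 25, with Asns lower in KO in control medium (12.3 and 6.02 CPM) and a difference of 3.58 ± 0.32 (adjusted p = 1.4e-08).

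IL-4 genes were lower in KO in both media. In control medium 18 of 26 were lower and 2 higher, with a median log2 fold change of -1.38 beside -1.14 in MPNST-CM, and the difference was more positive in MPNST-CM for 9 and more negative for 5. Arg1 was at 92.0 CPM in WT and 4.89 CPM in KO in control medium, so that its fall was the larger there by 2.77 ± 0.31 on the log2 scale (adjusted p = 1.3e-06). Mgl2, at 342 and 69.7 CPM, also fell further there, by 1.08 ± 0.18 (adjusted p = 6.5e-05). Mrc1 was lower in KO in control medium, at 753 and 558 CPM, and higher in MPNST-CM, and both differences were unequal (0.74 ± 0.10, adjusted p = 4.5e-06). Ocstamp fell in both media, from 401 to 65.6 CPM in control medium. Subunits of complex I were lower in KO in control medium in 20 of 36, and their difference was more positive in MPNST-CM for 14 and more negative for none.

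**Figure D4:**
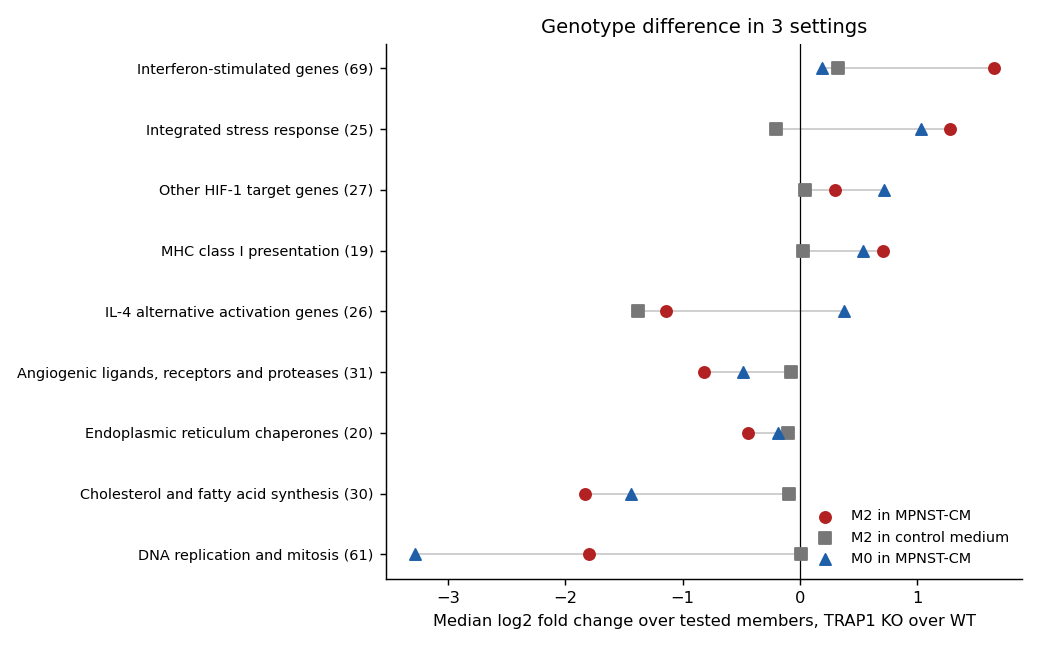
Median log2 fold change, TRAP1 KO over WT, over the tested members of 9 gene lists in M2 in MPNST-CM (circles), M2 in control medium (squares) and Mφ (M0) in MPNST-CM (triangles). Interferon-stimulated genes have a median of 1.65 in M2 in MPNST-CM and 0.32 and 0.19 in the other settings. In MPNST-CM the stress response list has medians of 1.28 in M2 and 1.03 in Mφ. The cholesterol list has -1.83 and -1.44, and 11 of its 30 members were more negative in M2.

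Set against Mφ macrophages in the same medium, the genotype difference of M2 macrophages differed in 978 genes, with 553 (4.06%) more positive and 425 (3.12%) more negative in M2. The more positive genes made up 56.5% of these calls, and 43.1% of 1001 calls with no filter and 44.2% of 1041 with a stricter one. In Mφ 2598 genes (19.1%) were higher and 2609 (19.2%) lower in KO. Of the 4627 genes called in M2, 3157 (68.2%) were called in Mφ in the same direction and 82 in the other. Interferon-stimulated genes stood out, since 59 of 69 were more positive in M2. In Mφ itself 27 of the 69 were higher in KO and 9 lower, beside 19.1% and 19.2% of all genes. The genes that follow had the most positive differences. Ifit3 was at 174 CPM in WT Mφ and 126 CPM in KO Mφ, a fall where M2 rose, and the difference was 3.21 ± 0.14 (adjusted p = 2.4e-14). Rsad2, at 444 and 250 CPM in Mφ, and Cmpk2, an interferon-induced nucleotide kinase, at 77.7 and 38.4 CPM, did the same, with differences of 3.17 ± 0.12 (adjusted p = 5.5e-16) and 3.21 ± 0.15 (adjusted p = 3.3e-14). Ifit2 and Ifit3b completed the 5 most positive, and Ifit3b may share reads with its near-identical paralog Ifit3. WT Mφ in MPNST-CM had Ifit3 and Rsad2 above the level of WT M2 and below that of KO M2, and Irf7 was higher in KO in both cell types, at 113 and 313 CPM in Mφ.

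Of the 25 stress response genes 18 were higher and 3 lower in KO Mφ, and the difference was more positive in M2 for 3 and more negative for 2. Trib3 was at 3.25 and 39.6 CPM in Mφ and its difference of differences was 0.09 ± 0.38 (adjusted p = 0.95). Replication genes were lower in KO in 60 of 61 in both cell types, and less so in M2 for 49. Mcm5, for instance, went from 118 to 10.8 CPM in Mφ, and its fall was smaller in M2 by 1.46 ± 0.18 on the log2 scale (adjusted p = 2.9e-06). Cholesterol genes were more negative in M2 for 11 of 30, Fads2 by 1.48 ± 0.16 (adjusted p = 4.1e-07). Tfrc fell from 74.6 to 32.4 CPM in Mφ and further in M2 (-2.20 ± 0.12, adjusted p = 2.0e-12). IL-4 genes were more negative in M2 for 10 of 26 and more positive for none. Mgl2 was at 1.31 CPM in WT Mφ and 10.3 CPM in KO Mφ, a rise, and the difference was -4.18 ± 0.27 (adjusted p = 5.3e-11). Tuba8 (-3.69 ± 0.49), Ocstamp (-3.47 ± 0.98), Arg1 (-3.27 ± 0.51) and Ccl24 (-3.10 ± 0.64) were the other 4 most negative. Arg1 was low in Mφ in MPNST-CM, at 1.93 to 4.29 CPM without scaling in KO, so its difference rests on low levels there. Its fitted genotype difference in Mφ was positive, since that in M2 was -1.47. Vegfa rose in Mφ from 26.4 to 288 CPM, more than in M2 (-2.04 ± 0.15, adjusted p = 5.2e-10).

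**Figure D5:**
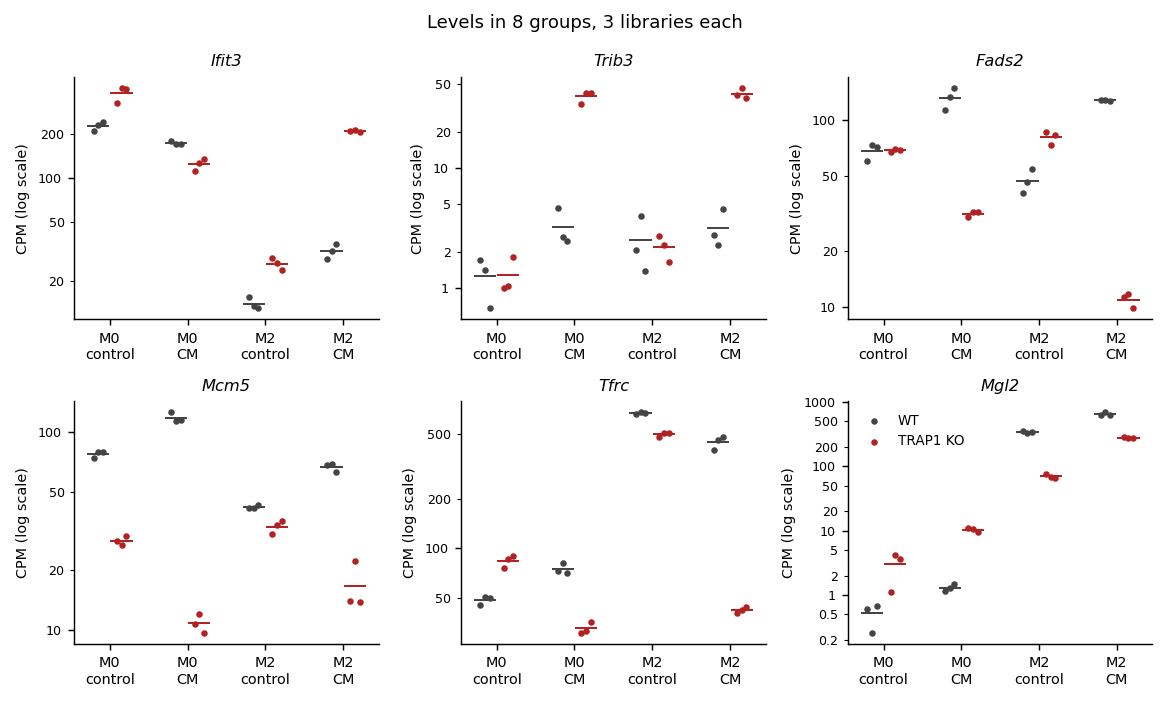
Level of 6 genes in the 8 groups of batch 1, in CPM on a log scale; points are libraries, bars are means of 3, and control and CM stand for control medium and MPNST-CM. Ifit3 is 6.66-fold higher in TRAP1 KO than in WT in M2 in MPNST-CM and lower in KO in M0 in MPNST-CM. Its highest means are those of M0 in control medium, at 229 CPM in WT and 385 CPM in KO. Trib3 is high in KO in MPNST-CM in both cell types, and Tfrc falls furthest in KO M2 in MPNST-CM.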

How the data were processed

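Poly(A) RNA of mouse macrophages was measured by stranded 3′ RNA-seq (QuantSeq forward kit, single reads). Per the labels, the authors trimmed the reads with Trimmomatic, checked them with FastQC, mapped them with HISAT2 (build mm39 per the labels), filtered them with SAMtools at a mapping quality of at least 20 and counted them on genes with featureCounts. The deposited values are raw counts per gene, without normalization. Versions are not given in the sources used here. Of 32 columns in the table, 5 matched no described sample and were not used.

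Samples were grouped by their labels. The counts of the 24 libraries of batch 1, in 8 groups, entered 1 fit in edgeR 4.0.16, run in R 4.3.3 with limma 3.58.1. Genes were kept by filterByExpr with the group given, libraries were scaled by TMM, and the quasi-likelihood F-test was run with robust dispersions. P-values were adjusted over all 13614 genes by the method of Benjamini and Hochberg and called at 0.05. All adjusted p-values and standard errors come from this two-sided test unless another fit is named, and CPM values are scaled by TMM. Both tests of a difference between genotype differences use the same fit. An exact permutation test of 3 against 3 libraries cannot go below p = 0.1 and was not used. The code was tested on simulated counts.

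A group at 0 counts in all libraries is given as a bound against a floor of 3 counts per library. Intervals and floors cover counting error only. Standard errors are of the fitted log2 fold change, with 3 libraries per group. The alternatives were median-of-ratios scaling, DESeq2 1.42.0, no filter and a stricter filter, all 27 libraries with and without batch as a covariate, the replicate number as a block, the 6 libraries alone, each library left out and a 2-fold threshold.

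The gene lists and members were chosen with earlier results of these data known. Genes were named by a rule: Trap1 and Xist, the 12 largest rises and falls past the threshold at 10 CPM or more without overlap, in each list up to 3 rises, 3 falls and 2 uncalled members, the RT-qPCR markers of the study, 5 genes per direction of each difference between differences, and the 20 genes around Trap1. Not every gene of the rule is described. Other genes named were chosen after their values had been seen. Gene order and promoters came from RefSeq tables of GRCm38.p6, to which 13421 of the tested genes matched by symbol, and no coordinate was carried to mm39. Promoters are read by symbol only. Some items are not reported here.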

Additional observations from a re-analysis of the deposited data

Results flagged for a closer look

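The genotype difference of M2 macrophages in MPNST-CM differed from that in control medium in 2751 genes by edgeR's test of the difference itself, of which 1274 were more positive and 1477 more negative in MPNST-CM. In the same medium, it differed from that of Mφ macrophages in 978 genes, of which 553 were more positive and 425 more negative in M2. Groups of 3 libraries are too small for the test of single libraries that stand apart.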

How the results depend on the processing

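The count of 4627 genes was within 1.5 times under median-of-ratios scaling (4570), DESeq2 (4463), no filter, the stricter filter and the 6 libraries alone (4180), and no gene called in both fits was opposite in sign. With all 27 libraries, however, 53 of the 4627 genes and 343 of the 2751 changed sign, as did 34 and 210 with batch as a covariate. Leaving out each library of the comparison in turn gave 3882 to 4368 genes, and 2232 to 2566 and 798 to 1055 genes for the tests against control medium and against Mφ. With all 27 libraries the 3 counts were 1681, 180 and 130 genes, and with batch as a covariate as well 1839, 269 and 146. The batch 2 libraries decide these counts, since they are the added samples. At a 2-fold threshold the counts were 1536, 1214 and 430. With the replicate block they were 5162, 2711 and 1237, and in the 6 libraries alone with the block 4314. Same-numbered libraries of the 2 groups deviated together with correlations of 0.05, 0.31 and -0.19, and over all batch 1 groups same-numbered pairs had a mean correlation of 0.17, from as low as -0.47, against -0.06 for other pairs, so that pairing was not established. Of the called genes described, 3 changed sign with the batch 2 libraries. Mrc1 came to -0.069 (adjusted p = 0.92) with all 27 libraries and -0.027 (adjusted p = 0.97) with batch as a covariate, Ciita to 0.51 (adjusted p = 0.76) and 0.31 (adjusted p = 0.89), and Retnla to 1.97 (adjusted p = 0.22) and 0.19 (adjusted p = 0.94), and the cause was not tested. Counts within small lists moved by over 1.5 times under several settings, such as those of the lysosome, ribosome and respiratory chain lists, as given above. Depth limits genes near the floor of 3 counts.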

Other observations

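A library of batch 2 labelled as TRAP1 KO M2 in MPNST-CM had levels unlike those of the 3 batch 1 libraries of that group. In CPM without scaling, Slfn1 was at 0.790 against 31 to 36.8, Trib3 at 2.17 against 37.5 to 44.9, Tfrc at 869 against 39.7 to 43.5, Retnla at 4252 against 211 to 230 and Mrc1 at 663 against 3245 to 3670. Its Xist level was 293 CPM, where the batch 1 libraries of the group had at most 1.12 CPM, and Trap1 had no count. The batch 2 library labelled as TRAP1 KO M2 in control medium had Slfn1 at 101 CPM, Trib3 at 144 CPM and Tfrc at 13.1 CPM, with Xist at 422 CPM. Batch 1 libraries of TRAP1 KO M2 in control medium had Tfrc at 432 to 454 CPM and Retnla at 1579 to 1854 CPM, against 25.1 CPM of Retnla in that library. Its Arg1 and Mrc1 were nearer to that group, at 2.40 CPM against 3.71 to 4.97 and at 694 CPM against 461 to 534. Both batch 2 libraries labelled TRAP1 KO go against the batch 1 libraries of their labels on Slfn1, Trib3, Tfrc, Retnla and Xist, and the cause was not tested.

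Siglecf, a lectin known from eosinophils and alveolar macrophages, was the only one of 6 eosinophil markers tested, at 26.3 to 39.3 CPM in WT and 3.92 to 4.36 CPM in KO. Summed megakaryocyte markers, of which Pf4 and Ppbp are also chemokines of macrophages, were at 4280 to 5230 CPM in WT and 8530 to 10300 CPM in KO.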
